A study of Danio rerio with 12 samples.

Results

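This account covers the genes of the myosin heavy chains, the troponins and the tropomyosins in zebrafish larvae mutant for yap, or for yap and taz. They were taken by name: every gene whose symbol begins with myh, smyhc, myhz, vmhc, tnnc, tnni or tnnt, or is tpm followed by a number, or tpma. The rule found 53 of the 25473 gene identifiers in the deposited count table, and 50 of them had enough reads to enter the test of 19493 genes. Of the remaining 3, tnni4b.1 and one TNNI1 identifier were too low for the test, and so was TNNI3K, a kinase gene that the rule catches by its name alone. No identifier carried the symbol vmhc, and whether that gene stands under another symbol, such as MYH6 or MYH7, is not known.

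Polyadenylated RNA was sequenced from zebrafish larvae at 3 days post-fertilization (dpf), in 12 libraries. YapTazKO larvae were yap-/-;taz-/- mutants, YapKO larvae were yap-/- mutants for which the labels name no taz allele, and WT larvae were wild type, with 4 libraries of each. The kind of mutation, the number of larvae per library and their relatedness are not stated in the labels. The source is labelled as larvae with no organ named, so skeletal muscle, heart, gut and vessels share each library.

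Myosin heavy chains are the motors that pull on actin filaments. In striated muscle, troponin and tropomyosin sit on those filaments as the calcium switch: troponin C binds calcium, troponin I holds the filament in the inhibited state, and troponin T ties the complex to tropomyosin. Fast fibres, slow fibres and heart use partly different genes for these proteins, and some genes are shared. Smooth muscle and non-muscle cells have their own myosins and contract without troponin. The Hippo kinases hold back Yap and Taz, paralogous co-activators of transcription.

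Values are CPM, read counts scaled to a common library size with a normalization factor. They are not divided by transcript length, so they are compared between genotypes and not between genes. Fold changes are log2 of the genotype named first over the other, from edgeR's quasi-likelihood test on all 12 libraries, with p-values adjusted by Benjamini-Hochberg over all 19493 genes. A gene is said to rise or fall only at an adjusted p under 0.05. In a whole-larva library, fewer cells of a type and less RNA per cell cannot be told apart. Several of the genes share a symbol in the list of names, which often gives the human form, so such genes carry their identifier.

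Total counts per library were 7028251 to 8657381. A count of 0 allows up to 3 reads, or 0.334 to 0.443 CPM. Against WT, YAP1 was lower in YapTazKO larvae (-0.34, adjusted p = 0.0126) and in YapKO larvae (-0.56, adjusted p = 0.00149). WWTR1, which encodes Taz, averaged 5.56 ± 0.886 CPM in YapTazKO larvae, 10.4 ± 1.17 CPM in YapKO larvae, and 7.03 ± 1.33 CPM in WT larvae (SD, n = 4 each). It was higher in YapKO than in WT larvae (0.56, adjusted p = 0.0425) and lower in YapTazKO than in YapKO larvae (-0.90, adjusted p = 0.00673), while YapTazKO against WT gave -0.35 (adjusted p = 0.156). The library YapTazKO 1 stood apart for the fast muscle genes. For genes with values given per library, calls that changed without it are named beside the gene. For the other genes, passing no test refers to the fit with all libraries.

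Larvae mutant for both yap and taz differed from WT in both directions. In YapTazKO against WT larvae 10 of the 50 tested genes rose and 14 fell, where 27.7% of all genes tested passed the test, 13.9% higher and 13.8% lower. The genes that rose were mostly skeletal: the slow myosins smyhc1 and smyhc2, the fast myosins myhz1.1 and myhz1.2, tpma, one TNNT3 and one TNNI2, besides tnnt2c, tnnt2e and one MYH9. The genes that fell were 7 placed with the heart, 3 of slow and 2 of fast troponin, tpm1 and one MYH11. Their fold changes ran from 0.33 to 1.32 for those that rose and from -2.00 to -0.39 for those that fell.

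Fewer passed in the single mutant. In YapKO against WT larvae 4 of the 50 rose and 4 fell, where 9.13% of all genes tested were called, 5.72% higher and 3.41% lower: tnnt2c, myh6, smyhc1 and one MYH9 rose, and tnnc2.1, one TNNI2, tpm1 and one MYH11 fell. In YapTazKO against YapKO larvae 1 gene, a TNNI2, rose and 8 fell, where 4.18% of all genes tested were called, 1.92% higher and 2.26% lower. Those that fell were MYH11, tnnc2.1, tnni1c, TNNT1, one TNNI1, tnnt2d, tnni4a and one MYH6. The comparisons with WT share the same 4 WT libraries, and those of YapTazKO share its 4 libraries, so they are not independent of each other. Genotypes did not overlap in any library for 14 of the 50 genes in YapTazKO against WT larvae (28.9% of all genes tested), for 11 in YapKO against WT larvae (13.3%) and for 10 in YapTazKO against YapKO larvae (10.8%).

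The count in the single mutant changed with the libraries used, as did that of all genes tested. Leaving out 1 library at a time gave 3 calls without YapKO 1, 4 without YapKO 4, 5 without WT 2 and 13 without YapKO 3, against 8 with all. Over all genes tested the calls were 942, 954, 1076 and 3041 in the same order, against 1780. With the replicate number as a block, which pairs same-numbered libraries, 5 rose and 6 fell, where 2758 of all genes tested were called. Between the mutants, leaving out 1 library gave 4 calls without YapTazKO 1 or without YapTazKO 4 and 5 without YapKO 2, against 9. Over all genes tested these were 635, 497 and 468 in the same order, against 814. For YapTazKO against WT the range was 20 to 24.

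**Figure D1:**
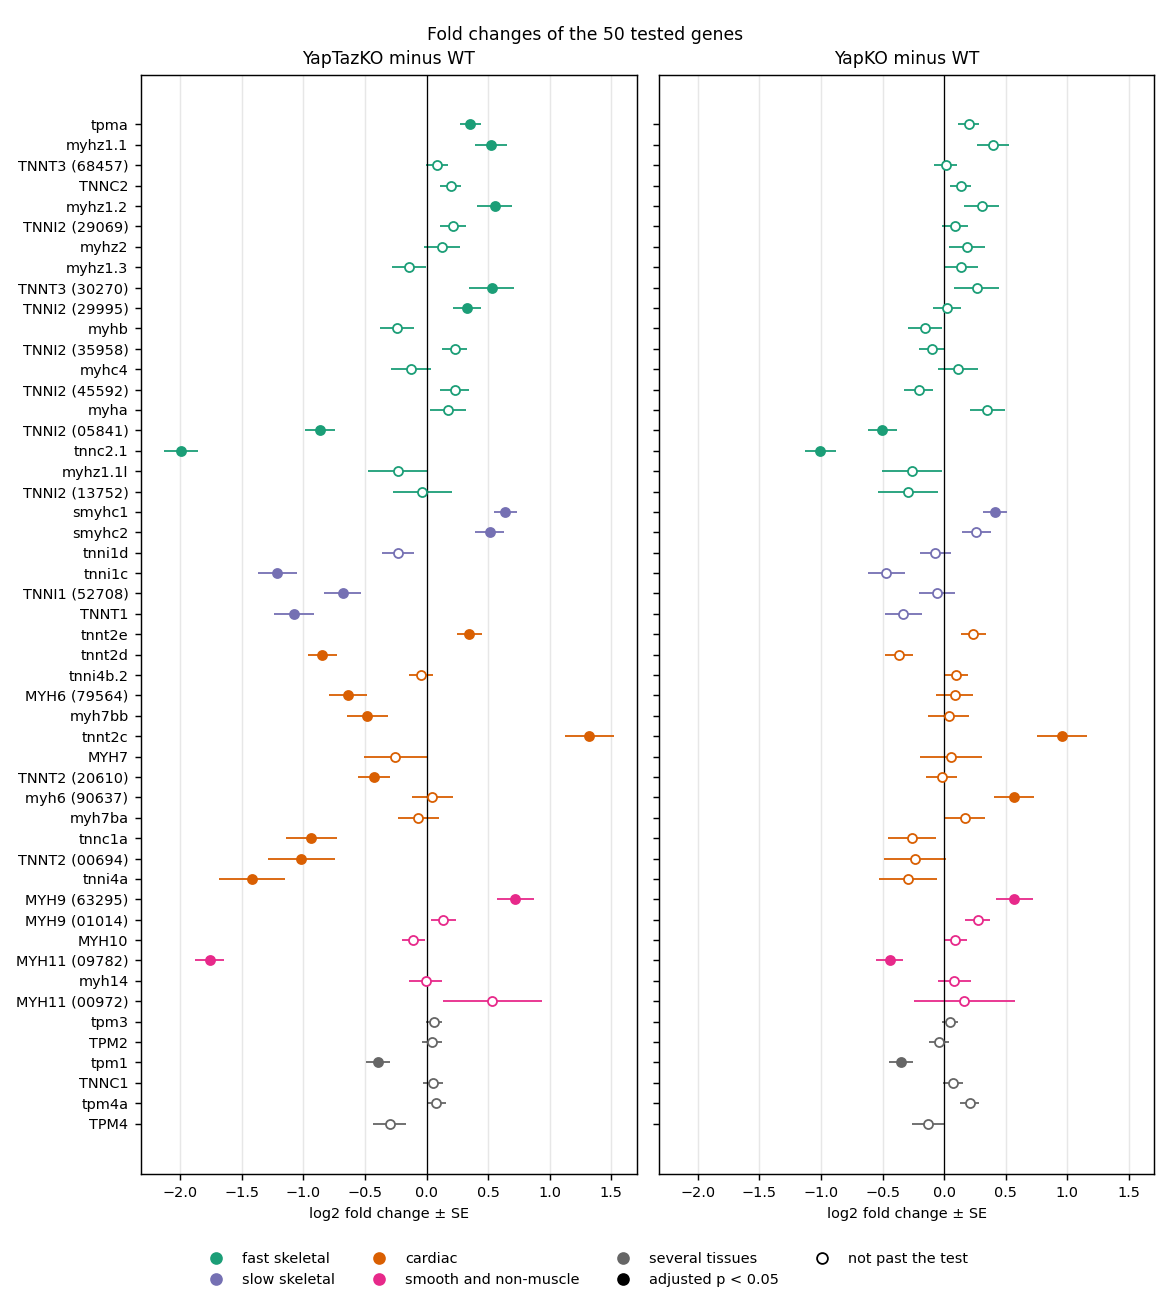
Log2 fold changes with SE of the 50 tested genes, YapTazKO minus WT on the left and YapKO minus WT on the right, coloured by class, ordered within a class by mean CPM and filled where the adjusted p was under 0.05. Digits in brackets are the last 5 of the identifier where a symbol is shared. Cardiac and slow troponin genes lie mostly left of 0 in YapTazKO larvae, with tnnt2c at 1.32 and the slow myosins smyhc1 and smyhc2 at 0.64 and 0.51 to the right.

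Of the identifiers named for smooth muscle myosin, 1 fell in both mutants. MYH11 (ENSDARG00000009782), the heavy chain of smooth muscle, was measured at 21.9, 31.8, 35 and 26.1 CPM in YapTazKO larvae, 69.1, 80.9, 67.5 and 68.7 CPM in YapKO larvae, and 96.6, 98.1, 93.6 and 100.2 CPM in WT larvae. Each of the 3 genotypes held its own range with no overlap, YapTazKO lowest, WT highest and YapKO between them. The log2 fold changes were -1.76 ± 0.116 (SE, adjusted p = 4.22e-08) for YapTazKO against WT, -0.44 ± 0.109 (adjusted p = 0.0194) for YapKO against WT and -1.32 ± 0.116 (adjusted p = 3.91e-05) between the mutants. The call for YapKO was lost without YapKO 1 or YapKO 4 (adjusted p = 0.055 to 0.0595), while the other comparisons kept theirs under every alternative run.

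A further MYH11 identifier (ENSDARG00000100972) had 1.94, 0.92, 2.07 and 1.48 CPM in YapTazKO larvae, 1.49, 0.76, 0.896 and 1.78 CPM in YapKO larvae, and 0.779, 0.658, 0.873 and 2.02 CPM in WT larvae, with overlapping genotypes. It passed no test, and its values were low, from 0.658 to 2.07 CPM, where a count of 0 allows 0.334 to 0.443 CPM.

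Non-muscle myosins went the other way or stayed uncalled. MYH9 (ENSDARG00000063295), a non-muscle myosin used in cell division and cell shape, had 262, 286, 331 and 293 CPM in YapTazKO larvae, 302, 242, 191 and 319 CPM in YapKO larvae, and 166, 148, 172 and 225 CPM in WT larvae. All YapTazKO libraries were above all WT libraries, whereas YapKO 3 lay below the highest WT library, WT 4. The log2 fold change was 0.72 ± 0.148 (adjusted p = 0.00177) in YapTazKO and 0.57 ± 0.148 (adjusted p = 0.0256) in YapKO larvae against WT. The YapKO call was lost without WT 1, WT 2, WT 3, YapKO 1 or YapKO 4 or with the 8 libraries of both genotypes alone (adjusted p = 0.0603 to 0.0882).

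The second MYH9 identifier (ENSDARG00000001014) had 157, 168, 179.6 and 185 CPM in YapTazKO larvae, 208, 193, 156 and 201 CPM in YapKO larvae, and 170.4, 167, 128 and 161 CPM in WT larvae. MYH10, the other widely expressed non-muscle heavy chain, had 149, 133, 165 and 145 CPM in YapTazKO larvae, 180.1, 164, 142 and 193 CPM in YapKO larvae, and 172, 151, 156 and 158 CPM in WT larvae. For both genes the genotypes overlapped, and neither passed a test in any comparison with all libraries. The second MYH9 identifier passed in YapKO against WT larvae without YapKO 3 (adjusted p = 0.0239). No test was passed by myh14, a further non-muscle myosin, at 18.7 ± 2.43 CPM in YapTazKO larvae, 19.9 ± 2.39 CPM in YapKO larvae, and 18.8 ± 3.15 CPM in WT larvae (SD, n = 4 each).

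Of the slow fibre myosins, smyhc1, the heavy chain of the first slow fibres of the zebrafish embryo, had 957, 1153, 1111 and 1286 CPM in YapTazKO larvae, 994, 995, 813 and 1050.5 CPM in YapKO larvae, and 665, 748, 736 and 741 CPM in WT larvae. Every mutant library of either kind was above every WT library. The log2 fold changes against WT were 0.64 ± 0.0953 (adjusted p = 0.000122) in YapTazKO and 0.41 ± 0.0951 (adjusted p = 0.013) in YapKO larvae. Between the mutants the difference was 0.23 ± 0.0949 (adjusted p = 0.209).

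Its neighbour smyhc2 had 69.8, 74.9, 91.8 and 86.1 CPM in YapTazKO larvae, 65.8, 66.9, 61.2 and 77.2 CPM in YapKO larvae, and 51.4, 50.5, 70.4 and 53.8 CPM in WT larvae. WT 3 reached into the range of both mutants. It rose in YapTazKO larvae (0.51 ± 0.116, adjusted p = 0.00356), and YapKO against WT gave 0.26 ± 0.116 (adjusted p = 0.169), which passed the test without WT 3 (adjusted p = 0.0472).

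Among fast myosins, myhz1.1 was measured at 5154, 6990.1, 7964 and 7558 CPM in YapTazKO larvae, 6477, 5583, 5743 and 7541 CPM in YapKO larvae, and 3985, 5178, 5388 and 4701 CPM in WT larvae. YapTazKO 1 was the lowest library of its genotype and fell within the WT range, and the other YapTazKO libraries were above it. The log2 fold change was 0.52 ± 0.132 (adjusted p = 0.00733) in YapTazKO and 0.40 ± 0.132 (adjusted p = 0.0704) in YapKO larvae against WT. Same-numbered YapKO and WT libraries varied together over all genes tested, but not for myhz1.1 itself. With the replicate number as a block the YapKO value passed the test (0.41, adjusted p = 0.0213). It also passed without YapKO 3 or YapTazKO 1 or with DESeq2 (adjusted p = 0.0335 to 0.0497). Without YapTazKO 1 the log2 fold change against WT was 0.64 (adjusted p = 0.000903) in YapTazKO and 0.40 (adjusted p = 0.0335) in YapKO larvae.

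myhz1.2 had 1711, 2369.8, 3025 and 2973 CPM in YapTazKO larvae, 2183, 2016, 2103 and 2191 CPM in YapKO larvae, and 1445, 1918, 1922 and 1588 CPM in WT larvae. It rose in YapTazKO larvae (0.55 ± 0.143, adjusted p = 0.00861), again with YapTazKO 1 inside the WT range (0.70, adjusted p = 0.000293 without it). In YapKO larvae the value against WT was 0.31 ± 0.143 (adjusted p = 0.191), although no YapKO library reached the WT range.

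The remaining fast myosins passed no test. myhz2 had 1275, 2225, 1952 and 2015 CPM in YapTazKO larvae, 1738, 2069, 1641 and 2336 CPM in YapKO larvae, and 1452, 1817, 1843 and 1718 CPM in WT larvae, with overlap of all genotypes. myhz1.3 averaged 832 ± 193 CPM in YapTazKO larvae, 1011 ± 42.7 CPM in YapKO larvae, and 919 ± 103 CPM in WT larvae. Fold changes in YapTazKO against WT were 0.13 ± 0.146 (adjusted p = 0.555) for myhz2, -0.14 ± 0.137 (adjusted p = 0.472) for myhz1.3, -0.13 ± 0.161 (adjusted p = 0.601) for myhc4, 0.17 ± 0.146 (adjusted p = 0.417) for myha, -0.24 ± 0.14 (adjusted p = 0.223) for myhb and -0.23 ± 0.241 (adjusted p = 0.516) for myhz1.1l.

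In the assembly GRCz12tu, which may differ from the annotation behind the counts, myhz2, myhc4, myha, myhz1.3, myhz1.2 and myhz1.1 are neighbours. Their sequences were not compared here, and how reads that match several of them were counted is not given in the sources used. The split among them is therefore uncertain where copies are alike. Summed, they had 8762, 12642, 13994 and 13626 CPM in YapTazKO larvae, 11597, 10860, 10628 and 13146 CPM in YapKO larvae, and 7867, 10072, 10270.0 and 8928 CPM in WT larvae. All YapKO libraries and the YapTazKO libraries other than YapTazKO 1 were above every WT library. Within the sum, myhz1.1 held 56.6 ± 1.64% in YapTazKO, 54.7 ± 2.56% in YapKO and 51.8 ± 0.935% in WT larvae (SD, n = 4 each), and myhz1.3 held 6.74 ± 0.471%, 8.82 ± 1.04% and 9.94 ± 0.956% in the same order. The same uncertainty holds for smyhc1 and smyhc2.

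Cardiac-type myosins split. MYH6 (ENSDARG00000079564), named for the atrial heavy chain, had 42.4, 62.2, 76.7 and 47.6 CPM in YapTazKO larvae, 100.5, 107, 76.9 and 91.9 CPM in YapKO larvae, and 76.4, 82.7, 97.8 and 98.1 CPM in WT larvae. All YapTazKO libraries but YapTazKO 3 were below every WT library, and all 4 were below every YapKO library. It fell in YapTazKO larvae against WT (-0.64 ± 0.156, adjusted p = 0.00607) and against YapKO (-0.72 ± 0.156, adjusted p = 0.0147). The second of these calls was lost without YapKO 2 or YapTazKO 4 (adjusted p = 0.0523 to 0.0564).

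The other identifier, myh6 (ENSDARG00000090637), had 6.29, 8.28, 9.61 and 8.91 CPM in YapTazKO larvae, 15.4, 11, 9.73 and 11.2 CPM in YapKO larvae, and 8.45, 8.42, 7.48 and 7.52 CPM in WT larvae. It was higher in every YapKO library than in any WT library, with a log2 fold change of 0.57 ± 0.162 (adjusted p = 0.0373), against 0.05 ± 0.169 (adjusted p = 0.865) in YapTazKO larvae. The rise was lost without WT 1, WT 2, WT 3, WT 4, YapKO 1, YapKO 2, YapKO 4 or YapTazKO 2 or with the 8 libraries of both genotypes alone (adjusted p = 0.0502 to 0.142). Nothing in the files shows which of these identifiers is expressed where.

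myh7bb, a paralogue of MYH7B, a myosin of heart and slow muscle in mammals, had 43, 43.8, 77.6 and 43.2 CPM in YapTazKO larvae, 81.6, 75.4, 59.4 and 79.8 CPM in YapKO larvae, and 70.6, 61.6, 77.2 and 79.5 CPM in WT larvae. YapTazKO 3 was close to the WT libraries, and the other 3 YapTazKO libraries lay below all of them. The log2 fold change was -0.48 ± 0.167 (adjusted p = 0.0404). The call was lost without WT 1, WT 3, WT 4, YapTazKO 1, YapTazKO 2 or YapTazKO 4 (adjusted p = 0.064 to 0.121). Without YapTazKO 3 the gene also passed the test between the mutants (-0.77, adjusted p = 0.00225), which it did not with all libraries (-0.52 ± 0.167, adjusted p = 0.0936).

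MYH7, the slow and ventricular heavy chain of mammals, had 14.9, 32.2, 28.5 and 34.6 CPM in YapTazKO larvae, 42.5, 36.5, 20.9 and 36.4 CPM in YapKO larvae, and 22.7, 29.7, 47.1 and 31.7 CPM in WT larvae, with overlap of all genotypes. myh7ba averaged 7.69 ± 1.55 CPM in YapTazKO larvae, 9.01 ± 1.27 CPM in YapKO larvae, and 8 ± 0.895 CPM in WT larvae. Neither passed a test. In all, 5 of 21 tested heavy chains rose and 3 fell in YapTazKO against WT larvae, 3 rose and 1 fell in YapKO against WT larvae, and 0 rose and 2 fell between the mutants. These stand against 27.7%, 9.13% and 4.18% of all genes tested in the same order. Between the mutants, 19 of the 50 genes of all roles, or 38%, had an unadjusted p under 0.05 in edgeR's test, against 18.5% of all genes tested. Against WT the shares were 54% and 39.3% in YapTazKO larvae, and 38% and 25.6% in YapKO larvae.

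**Figure D2:**
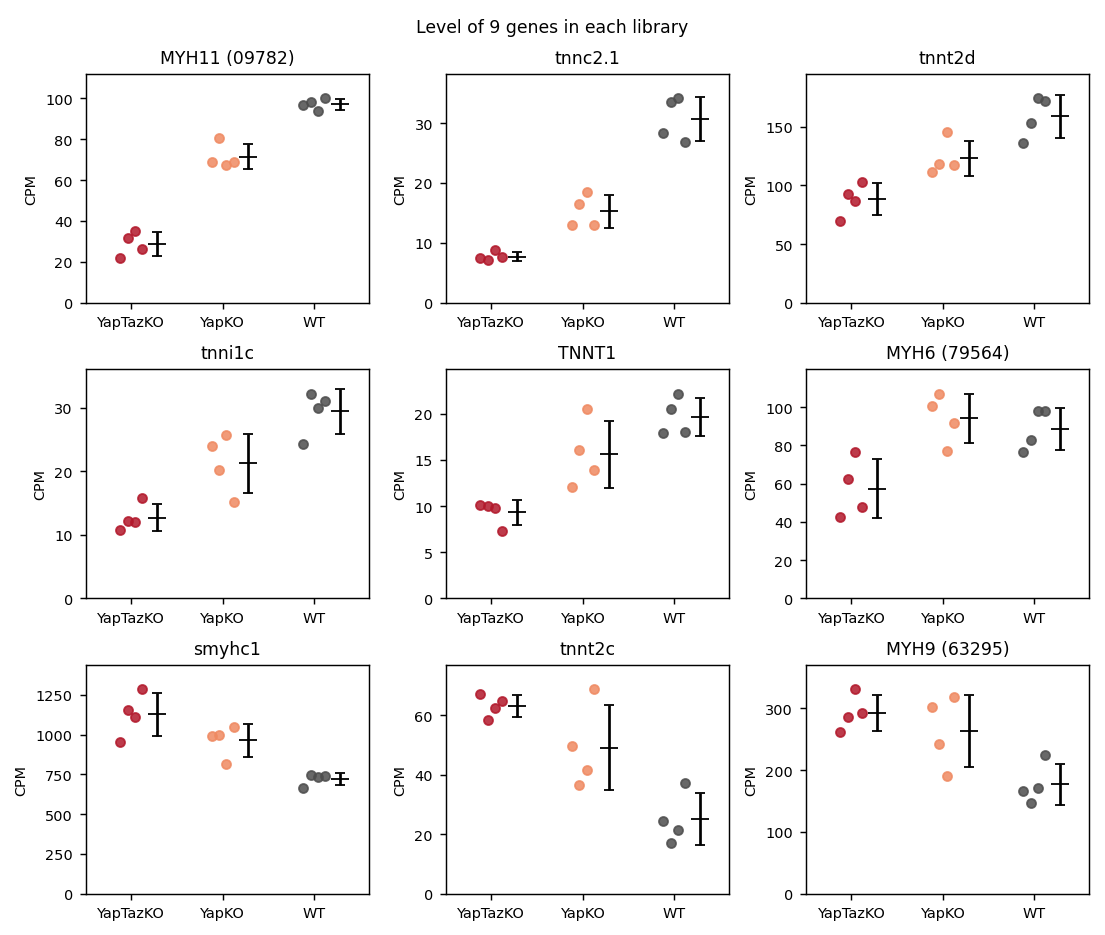
CPM in each of the 12 libraries for 9 genes, with YapTazKO, YapKO and WT from left to right; points are libraries, bars are mean ± SD (n = 4) and each axis starts at 0. MYH11 and tnnc2.1 form 3 separate levels, lowest in YapTazKO; smyhc1 is above all WT libraries in every mutant library; and tnnt2c and MYH9 are highest in YapTazKO on average.

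Troponin C, the calcium sensor, held the largest fall among the 50 genes in YapTazKO against WT larvae. tnnc2.1, a fast troponin C, had 7.38, 7.1, 8.72 and 7.56 CPM in YapTazKO larvae, 13, 16.5, 18.6 and 13 CPM in YapKO larvae, and 28.4, 33.4, 34.2 and 26.8 CPM in WT larvae. As with MYH11, the genotypes did not overlap, and YapKO lay between. The log2 fold changes were -2.00 ± 0.139 (adjusted p = 8.25e-08) for YapTazKO against WT, -1.01 ± 0.127 (adjusted p = 0.000136) for YapKO against WT and -0.99 ± 0.146 (adjusted p = 0.00144) between the mutants, and all 3 held under every alternative run.

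TNNC2, the other fast troponin C, had 3334 ± 353 CPM in YapTazKO larvae, 3196 ± 299 CPM in YapKO larvae, and 2908 ± 115 CPM in WT larvae and passed no test (0.20 ± 0.0859, adjusted p = 0.0998 in YapTazKO and 0.14 ± 0.0859 (adjusted p = 0.343) in YapKO larvae against WT). Whether the fast troponin C genes differed from each other in their change was not tested.

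tnnc1a, the cardiac troponin C of zebrafish, had 2.3, 4.99, 3.4 and 4.18 CPM in YapTazKO larvae, 6.09, 6.72, 6.15 and 4.7 CPM in YapKO larvae, and 6.45, 8.16, 7.23 and 6.63 CPM in WT larvae. It fell in YapTazKO larvae (-0.93 ± 0.208, adjusted p = 0.00312), with every library below every WT library, and stood at -0.26 ± 0.194 (adjusted p = 0.423) in YapKO larvae. TNNC1 (ENSDARG00000037539), of heart and slow fibres, averaged 190.2 ± 17.1 CPM in YapTazKO larvae, 193 ± 14.3 CPM in YapKO larvae, and 184 ± 11.3 CPM in WT larvae and passed no test.

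Troponin I, the inhibitory subunit, fell in YapTazKO against WT larvae in 2 of 3 tested slow genes, 1 of 2 tested cardiac genes and 1 of 6 fast genes. Another 1 of the 6 fast genes rose. Over all genes tested 13.9% rose and 13.8% fell, and these groups are small. tnni1c, a slow form, had 10.8, 12.222, 12 and 15.8 CPM in YapTazKO larvae, 24, 20.2, 25.7 and 15.1 CPM in YapKO larvae, and 24.4, 32.2, 30.049 and 31.1 CPM in WT larvae. All YapTazKO libraries were below all WT libraries, and YapTazKO 4 lay above YapKO 4. The log2 fold change was -1.21 ± 0.159 (adjusted p = 3.8e-05) in YapTazKO and -0.47 ± 0.15 (adjusted p = 0.0622) in YapKO larvae against WT, the second passing the test with the replicate block (-0.47, adjusted p = 0.0499) and without WT 1 or YapKO 3 or with no low-count filter or with DESeq2 (adjusted p = 0.0223 to 0.05). Between the mutants it was -0.75 ± 0.163 (adjusted p = 0.0155), a call lost without YapKO 3, YapTazKO 1 or YapTazKO 2 (adjusted p = 0.0515 to 0.0524).

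TNNI1 (ENSDARG00000052708), the slow fibre form, had 9.92, 18, 16 and 14.4 CPM in YapTazKO larvae, 24.6, 21.9, 20.2 and 22.8 CPM in YapKO larvae, and 22.5, 28.2, 21.2 and 21.6 CPM in WT larvae. It fell against WT (-0.68 ± 0.151, adjusted p = 0.00301) and against YapKO (-0.62 ± 0.152, adjusted p = 0.0278), with no overlap in either case. YapKO against WT gave -0.06 ± 0.144 (adjusted p = 0.837). The call between the mutants was lost without YapKO 1, YapKO 2, YapTazKO 1 or YapTazKO 4 (adjusted p = 0.0612 to 0.0753). tnni1d averaged 34.5 ± 7.25 CPM in YapTazKO larvae, 38.4 ± 4.3 CPM in YapKO larvae, and 40.4 ± 4.39 CPM in WT larvae and passed no test.

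tnni4a, placed with the cardiac genes, had 1.33, 2.5, 2.96 and 1.21 CPM in YapTazKO larvae, 4.84, 4.56, 2.94 and 4.96 CPM in YapKO larvae, and 5.78, 4.74, 6.11 and 4.6 CPM in WT larvae. It fell in YapTazKO larvae against WT (-1.42 ± 0.267, adjusted p = 0.00091), without overlap, and against YapKO (-1.13 ± 0.275, adjusted p = 0.0281). The second call was lost without YapKO 1, YapKO 2, YapKO 4, YapTazKO 1 or YapTazKO 4 (adjusted p = 0.0512 to 0.0878). Its relative tnni4b.2 averaged 79.4 ± 12.088 CPM in YapTazKO larvae, 87.4 ± 3 CPM in YapKO larvae, and 81.8 ± 5.7 CPM in WT larvae and passed no test, while tnni4b.1, untested, lay at 0.295 ± 0.115 CPM in YapTazKO larvae, 0.381 ± 0.312 CPM in YapKO larvae, and 1.04 ± 0.51 CPM in WT larvae.

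The list of names gives 6 identifiers the symbol TNNI2, the fast form. ENSDARG00000005841 had 16.1, 13.5, 16.7 and 18 CPM in YapTazKO larvae, 17.4, 22.7, 22 and 20.6 CPM in YapKO larvae, and 27.3, 25.9, 29.3 and 34.5 CPM in WT larvae. Every mutant library of either kind was below every WT library, and the log2 fold changes were -0.87 ± 0.12 (adjusted p = 6.76e-05) in YapTazKO and -0.50 ± 0.117 (adjusted p = 0.0141) in YapKO larvae. The YapKO call was lost without YapKO 1 (adjusted p = 0.0528).

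ENSDARG00000029995 rose, at 322, 373, 445 and 375 CPM in YapTazKO larvae, 266, 329, 331 and 298 CPM in YapKO larvae, and 276, 314, 359 and 256 CPM in WT larvae, with overlapping libraries (0.33 ± 0.114, adjusted p = 0.0405). This call was lost without WT 1, WT 2, WT 4, YapTazKO 2, YapTazKO 3 or YapTazKO 4 or with no low-count filter (adjusted p = 0.0546 to 0.138). ENSDARG00000045592, at 84.9, 95.5, 104 and 89.4 CPM in YapTazKO larvae, 56.1, 81.2, 76.6 and 62.3 CPM in YapKO larvae, and 66.5, 84.6, 90.3 and 77.4 CPM in WT larvae, was the only gene of the rule higher between the mutants (0.44 ± 0.119, adjusted p = 0.0498), and the call was lost without WT 2, WT 4, YapKO 1, YapKO 3, YapKO 4, YapTazKO 1, YapTazKO 2, YapTazKO 3 or YapTazKO 4 (adjusted p = 0.052 to 0.134).

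The other TNNI2 identifiers passed no test. ENSDARG00000029069 averaged 2215 ± 300.5 CPM in YapTazKO larvae, 2027 ± 218 CPM in YapKO larvae, and 1908 ± 174 CPM in WT larvae, ENSDARG00000035958 144 ± 8.27 CPM in YapTazKO larvae, 115 ± 12 CPM in YapKO larvae, and 123 ± 17.6 CPM in WT larvae and ENSDARG00000013752 5.98 ± 1.26 CPM in YapTazKO larvae, 4.98 ± 1.67 CPM in YapKO larvae, and 6.13 ± 1.32 CPM in WT larvae. In all, 1 of 11 tested troponin I genes rose and 4 fell in YapTazKO against WT larvae, and 0 rose and 1 fell in YapKO against WT larvae, where 27.7% and 9.13% of all genes tested were called.

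Troponin T, which anchors the complex to tropomyosin, moved in both directions within the genes named after the cardiac form. tnnt2d had 70.1, 93, 86.9 and 103 CPM in YapTazKO larvae, 112, 118, 145 and 118 CPM in YapKO larvae, and 136, 153, 175 and 172 CPM in WT larvae. YapTazKO libraries were below all others. The log2 fold changes were -0.85 ± 0.118 (adjusted p = 7e-05) in YapTazKO and -0.37 ± 0.117 (adjusted p = 0.0602) in YapKO larvae against WT, and the second passed the test with the replicate block (-0.36, adjusted p = 0.0116) and without WT 1, YapKO 3 or YapTazKO 1 or with no low-count filter or with DESeq2 (adjusted p = 0.0169 to 0.0461). Between the mutants it was -0.48 ± 0.118 (adjusted p = 0.0292), lost without YapKO 2, YapKO 3, YapTazKO 1, YapTazKO 2 or YapTazKO 3 (adjusted p = 0.0571 to 0.0897).

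tnnt2c had 67, 58.5, 62.4 and 64.7 CPM in YapTazKO larvae, 49.8, 36.5, 41.5 and 68.8 CPM in YapKO larvae, and 24.6, 17.1, 21.4 and 37.3 CPM in WT larvae. YapTazKO was above WT throughout, and YapKO 2 lay below WT 4, the only overlap of YapKO with WT. The rise was 1.32 ± 0.202 (adjusted p = 0.000156) in YapTazKO and 0.96 ± 0.203 (adjusted p = 0.00796) in YapKO larvae, both under every alternative run.

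tnnt2e had 144, 159, 177 and 160.1 CPM in YapTazKO larvae, 134, 146, 141 and 173 CPM in YapKO larvae, and 106, 121, 136 and 141 CPM in WT larvae. It rose in YapTazKO larvae (0.35 ± 0.102, adjusted p = 0.0185), every library of which was above every WT library. That call was lost without WT 1 or YapTazKO 3 (adjusted p = 0.0622 to 0.0636).

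Both identifiers named TNNT2 fell in YapTazKO larvae. ENSDARG00000020610 had 11.5, 16.6, 13 and 12.8 CPM in YapTazKO larvae, 18.4, 19.8, 16.3 and 17 CPM in YapKO larvae, and 17.7, 17.4, 21.6 and 15.9 CPM in WT larvae. YapTazKO 2 was above WT 4, and the other YapTazKO libraries were below every WT library (-0.43 ± 0.131, adjusted p = 0.0218). ENSDARG00000100694 had 2.06, 2.37, 3.7 and 2.16 CPM in YapTazKO larvae, 5.34, 5.32, 2.69 and 4.2 CPM in YapKO larvae, and 3.67, 7.11, 4.74 and 5.28 CPM in WT larvae. YapTazKO 3 was just above WT 1, and the other YapTazKO libraries were below every WT library (-1.02 ± 0.273, adjusted p = 0.0109). The first call was lost without WT 3, YapTazKO 1, YapTazKO 3 or YapTazKO 4 (adjusted p = 0.0513 to 0.0774), and that gene passed the test between the mutants without YapTazKO 2 (adjusted p = 0.0484). Where a troponin T named as cardiac rises while others fall, the files do not say in which tissue each is expressed.

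TNNT1, the slow fibre form, had 10.2, 9.99, 9.76 and 7.29 CPM in YapTazKO larvae, 12, 16.1, 20.5 and 13.9 CPM in YapKO larvae, and 17.9, 20.5, 22.2 and 18.1 CPM in WT larvae. The YapTazKO libraries were below all others, with a log2 fold change of -1.08 ± 0.16 (adjusted p = 0.000124) against WT and -0.75 ± 0.164 (adjusted p = 0.0159) against YapKO. YapKO against WT gave -0.33 ± 0.151 (adjusted p = 0.182), which passed the test without YapKO 3 (adjusted p = 0.0279). The call between the mutants was lost without YapTazKO 4 (adjusted p = 0.055).

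Of the fast forms, TNNT3 (ENSDARG00000030270) had 457, 528, 463 and 507 CPM in YapTazKO larvae, 399, 313, 473 and 445 CPM in YapKO larvae, and 343, 232, 273 and 507 CPM in WT larvae. WT 4 was within the YapTazKO range, and the other WT libraries were below it. The rise of 0.53 ± 0.183 (adjusted p = 0.0408) was lost without WT 1, WT 2, WT 3, YapKO 1, YapTazKO 1, YapTazKO 2, YapTazKO 3 or YapTazKO 4 or with DESeq2 or with upper-quartile scaling (adjusted p = 0.0504 to 0.122). In YapKO against WT larvae the gene passed the test without WT 4 (adjusted p = 0.0282). The other TNNT3 (ENSDARG00000068457) had 3135, 3981, 4179 and 3986 CPM in YapTazKO larvae, 3432, 3508, 4087 and 3515 CPM in YapKO larvae, and 3342, 3804, 3861 and 3402 CPM in WT larvae. Its genotypes overlapped, and it passed no test.

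Of 6 tropomyosins 1 rose and 1 fell in YapTazKO against WT larvae, and 0 rose and 1 fell in YapKO against WT larvae, shares near the 27.7% and 9.13% of all genes tested. tpma, the skeletal muscle tropomyosin of zebrafish, had 6693, 8402, 7906 and 7511 CPM in YapTazKO larvae, 6418, 6406, 7653 and 6903 CPM in YapKO larvae, and 5515, 6160.3, 6218 and 5945 CPM in WT larvae. Every mutant library was above every WT library. The log2 fold change was 0.36 ± 0.0834 (adjusted p = 0.00452) in YapTazKO and 0.20 ± 0.0834 (adjusted p = 0.144) in YapKO larvae.

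tpm1, used in many cell types and in the heart, had 212, 226, 285 and 232 CPM in YapTazKO larvae, 221, 267, 248 and 248 CPM in YapKO larvae, and 276, 315, 327 and 337 CPM in WT larvae. Every YapKO library was below every WT library, as was every YapTazKO library but YapTazKO 3. It fell in YapTazKO (-0.39 ± 0.0964, adjusted p = 0.0061) and YapKO larvae (-0.35 ± 0.0963, adjusted p = 0.0324) against WT. The YapKO call was lost without WT 2, WT 3, WT 4, YapKO 1 or YapKO 4 (adjusted p = 0.0669 to 0.109). TPM2, tpm3, tpm4a and TPM4 passed no test, with log2 fold changes in YapTazKO against WT of 0.05, 0.06, 0.08 and -0.30 in that order. Of these tpm3, the most often counted, had 660.5, 696, 694 and 737 CPM in YapTazKO larvae, 682, 687, 669.9 and 733 CPM in YapKO larvae, and 639, 683, 709.6 and 647 CPM in WT larvae, with overlap of all genotypes.

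Summed by class, the genes gave a coarser view. The fast class includes tpma, counted above among the tropomyosins, which had the highest mean of the class, 6811 CPM over all libraries. The 19 fast genes together had 24478 CPM in YapTazKO 1 and 32151 to 33204 CPM in the other YapTazKO libraries, 26782 to 29917 CPM in YapKO larvae, and 22431 to 26448 CPM in WT larvae. YapTazKO 1 was thus inside the WT range, and the other YapTazKO libraries were above every library of the other genotypes. Without YapTazKO 1, 6 of 19 tested fast genes rose and 2 fell against WT, against 5 and 2 with it, and tpma was among those that rose in either case. TNNT3 (ENSDARG00000030270) was not among the 6 (adjusted p = 0.057). The genes that rose only without YapTazKO 1 were fast genes with no values given per library. Over all genes tested, 4687 were called without YapTazKO 1 and 5391, or 27.7%, with it.

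The 7 slow genes had 1087 to 1441 CPM in YapTazKO, 981 to 1223 CPM in YapKO and 816 to 926 CPM in WT larvae. Mutant and WT ranges did not overlap. Most reads of the slow sum came from smyhc1, and the troponin genes tnni1c, TNNI1 and TNNT1 went the other way in YapTazKO larvae. Of 6 tested slow genes 2 rose and 3 fell in YapTazKO against WT larvae, where 13.9% of all genes tested rose and 13.8% fell. In YapKO against WT larvae 1 slow gene rose and 0 fell, where 5.72% of all genes tested rose and 3.41% fell. With the replicate block, with DESeq2 or with no low-count filter, 1 slow gene rose and 1 fell in YapKO larvae. The number called there was 2 without WT 1 or WT 3 and 3 without YapKO 3.

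The 14 cardiac genes had 477 to 633 CPM in YapTazKO, 615 to 710 CPM in YapKO and 563 to 697 CPM in WT larvae, with overlap. By gene, 2 of the 13 tested rose and 7 fell in YapTazKO against WT larvae, with a median log2 fold change of -0.43 against 0.01 over all genes tested. Without YapTazKO 1, 2 rose and 5 fell. In YapKO larvae 2 rose and 0 fell, at a median of 0.06, or 2 and 1 with the replicate block. Over all genes tested, 13.9% rose and 13.8% fell in YapTazKO larvae, and 5.72% rose and 3.41% fell in YapKO larvae, against WT. The block called 2758 of all genes tested in YapKO larvae, against 1780 without it. The number of cardiac genes called in YapKO larvae was 1 without WT 2, WT 3, WT 4, YapKO 1, YapKO 2, YapKO 4 or YapTazKO 2 or with the 8 libraries of both genotypes alone.

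**Figure D3:**
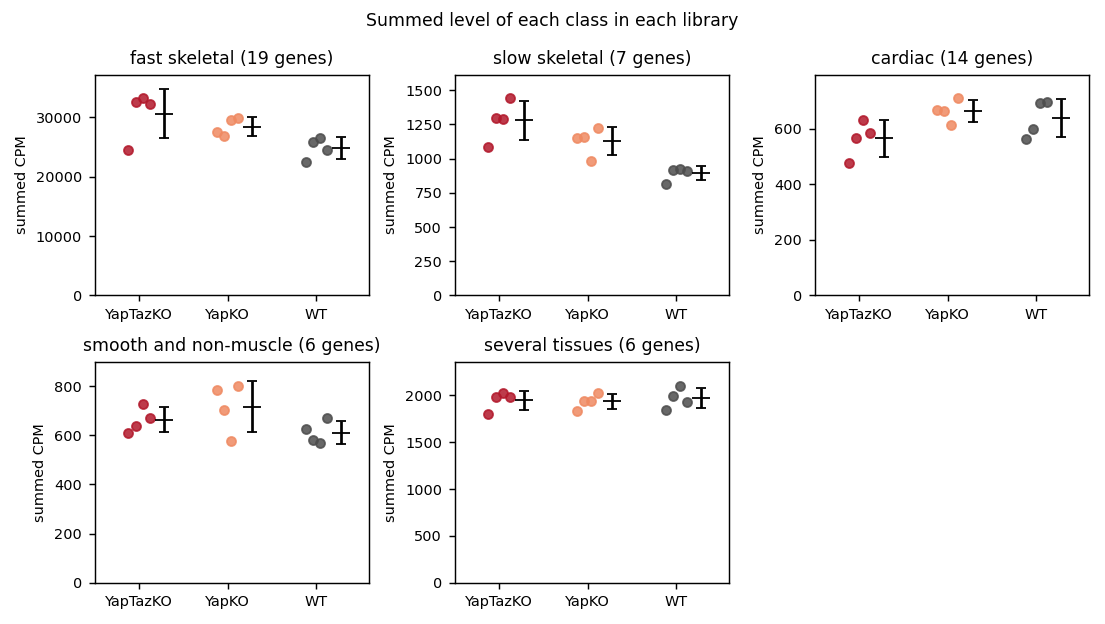
Summed CPM of each class in each library, for YapTazKO, YapKO and WT from left to right, with mean ± SD (n = 4) and axes from 0. One YapTazKO library, at 24478, lies apart from the 3 others of the fast class, and the slow sums of mutants lie above those of WT.

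Summed markers of the tissues were set beside these values. Of the marker symbols fixed for each tissue, 4 of 5 for heart, 3 of 5 for smooth muscle and 4 of 6 for skeletal muscle were found in the table, with TAGLN, CNN1 and ACTA1 standing for a pair of identifiers each. The 4 heart markers, nppa, nppb, MYL7 and cmlc1, summed to 30.9 to 49.4 CPM in YapTazKO, 59.8 to 72.2 CPM in YapKO and 56.5 to 62.1 CPM in WT larvae. Within that sum the genes differed: MYL7 and cmlc1 averaged 14.4 and 10.5 CPM in YapTazKO, against 31.9 and 17.3 CPM in WT larvae, and nppa and nppb averaged 11.2 and 2.25 CPM in YapTazKO, against 9.47 and 0.92 CPM in WT larvae. The 5 smooth muscle identifiers summed to 210.4 to 270.9 CPM in YapTazKO, 271 to 338 CPM in YapKO and 339 to 503 CPM in WT larvae, although TAGLN (ENSDARG00000033466) averaged 149 CPM in YapTazKO, 132 CPM in YapKO and 91.1 CPM in WT larvae. The other TAGLN (ENSDARG00000045408) went the other way, at 27.5 CPM in YapTazKO, 43.6 CPM in YapKO and 58.3 CPM in WT larvae. The 5 skeletal muscle identifiers summed to 26826 to 36201 CPM in YapTazKO, 23282 to 27128 CPM in YapKO and 17723 to 20728 CPM in WT larvae. Among them ACTA1 (ENSDARG00000055618) averaged 1920 CPM in YapTazKO, 2101 CPM in YapKO and 2051 CPM in WT larvae. The other skeletal muscle identifiers averaged higher in YapTazKO than in WT larvae. None of the heart, smooth muscle or skeletal muscle markers was at 0 in any library. However, CNN1 (ENSDARG00000017193) averaged 0.409 CPM in YapTazKO, 0.38 CPM in YapKO and 1.73 CPM in WT larvae. Its mutant averages were within the 0.334 to 0.443 CPM that a count of 0 allows. Of the markers of other cells, 5 myeloid identifiers summed to 68.9 to 75.7 CPM in YapTazKO, 42.5 to 56.1 CPM in YapKO and 38.3 to 47.5 CPM in WT larvae, with 1 MPEG1 identifier at 0 in part of the libraries. Within that sum, lyz averaged 22.1 CPM in YapTazKO, 13.6 CPM in YapKO and 19.8 CPM in WT larvae. SPI1 and the other MPEG1 identifiers averaged higher in both mutants than in WT larvae. The 2 erythrocyte markers summed to 32.2 to 41.1 CPM in YapTazKO, 29.9 to 67.3 CPM in YapKO and 37.9 to 150.2 CPM in WT larvae. Of these, alas2 averaged 34.5 CPM in YapTazKO against 83.4 CPM in WT larvae, and hbae1.1 2.29 against 1.18 CPM. The sums of 4 epidermal and 4 neuronal identifiers averaged 9669 and 776 CPM in YapTazKO, 9334 and 747 CPM in YapKO, and 8311 and 824 CPM in WT larvae. Within the epidermal sum, krt5 averaged 1173 CPM in YapTazKO, 1572 CPM in YapKO and 1990 CPM in WT larvae. The other epidermal markers averaged higher in YapTazKO than in WT larvae. The part of all these markers in the results above was not tested.

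The changes differed with how often a gene was counted. Split at the median of the 50 tested genes, 81.8 CPM, the 25 above it held 8 that rose and 2 that fell in YapTazKO against WT larvae, with a median log2 fold change of 0.13. The 25 below held 2 that rose and 12 that fell, with a median of -0.30. Over all genes tested, 18.8% rose and 23.9% fell above the same CPM, and 13.3% rose and 12.7% fell below it. CPM grows with transcript length too, so this is a split by reads and not by level. The fast genes that rose lay above 81.8 CPM, and the slow and most of the cardiac genes that fell lay below it. Reads and class therefore cannot be told apart here.

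**Figure D4:**
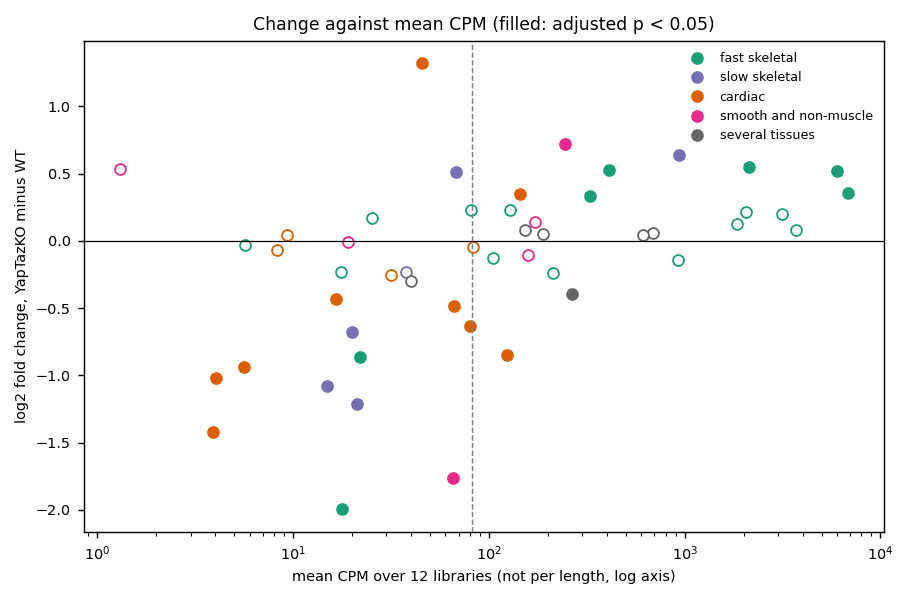
Log2 fold change in YapTazKO against WT larvae plotted against mean CPM over 12 libraries (log axis, not per length) for the 50 tested genes, filled where the adjusted p was under 0.05; the dashed line is the median of 81.8 CPM. Filled points right of the line are mostly above 0, 8 against 2, and those left of it mostly below, 2 against 12.

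Partner proteins of the contractile apparatus were described from 9 lists, whose counts stand against the shares of all genes tested given above, 27.7%, 9.13% and 4.18%. The lists share genes, so their counts are not independent. For example, acta2 is both an actin and a smooth muscle gene, and MYL7 is in the light chain and heart lists. Of 18 tested smooth muscle genes 3 rose and 11 fell in YapTazKO against WT larvae, and 1 rose and 6 fell, or 3 and 7 with the replicate block, in YapKO against WT larvae. acta2, the smooth muscle actin, had 49.9, 70.0, 85.3 and 52.4 CPM in YapTazKO larvae, 104, 151, 142 and 112 CPM in YapKO larvae, and 223, 313, 272 and 202 CPM in WT larvae. As with MYH11 the genotypes did not overlap, and the log2 fold changes were -1.97 ± 0.177 (adjusted p = 9.36e-07), -0.99 ± 0.17 (adjusted p = 0.00183) and -0.99 ± 0.175 (adjusted p = 0.00434) for YapTazKO against WT, YapKO against WT and YapTazKO against YapKO. FHL1, a LIM protein, was at 6.89 ± 0.632 CPM in YapTazKO larvae, 13.8 ± 1.5 CPM in YapKO larvae, and 20.6 ± 3.42 CPM in WT larvae (-1.58 ± 0.143, adjusted p = 9.91e-07 against WT). TAGLN (ENSDARG00000033466), the calponin relative transgelin, rose in YapKO larvae (0.54 ± 0.115, adjusted p = 0.00883). It averaged 149 CPM in YapTazKO, 132 CPM in YapKO and 91.1 CPM in WT larvae. The other TAGLN (ENSDARG00000045408) averaged lower in both mutants, at 27.5 CPM in YapTazKO, 43.6 CPM in YapKO and 58.3 CPM in WT larvae. The number of smooth muscle genes called in YapKO larvae was 3 without WT 2 and 4 without WT 1 or YapKO 4.

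Of 19 tested myosin light chains 4 rose and 7 fell in YapTazKO against WT larvae, and 0 rose and 2 fell in YapKO larvae, or 1 and 2 with the block. In YapKO larvae the number was 1 without WT 1, WT 2, YapKO 1, YapKO 2 or YapKO 4 and 4 without YapKO 3. MYL7, the heart light chain, was at 10.8, 15.5, 13.2 and 18.2 CPM in YapTazKO larvae, 33.8, 27.8, 26.5 and 23.5 CPM in YapKO larvae, and 30.6, 33.7, 35 and 28.4 CPM in WT larvae. It fell against WT (-1.15 ± 0.146, adjusted p = 2.86e-05) and against YapKO (-0.95 ± 0.147, adjusted p = 0.00196). Of 22 heart genes 2 rose and 5 fell in YapTazKO larvae. In YapKO larvae 3 rose and 0 fell, or 4 and 1 with the replicate block, among them nppa (0.94 ± 0.17, adjusted p = 0.00263) and nppb (1.67 ± 0.25, adjusted p = 0.000616), the natriuretic peptides.

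Of 8 tested actins 4 rose and 1 fell in YapTazKO against WT larvae, and the number was 3 without YapTazKO 2 or YapTazKO 3. In YapKO larvae 2 rose and 1 fell, or 4 and 1 with the block, and the number was 1 without WT 1, WT 3, WT 4, YapKO 1 or YapKO 4. Of 43 sarcomere scaffold genes 4 rose and 13 fell in YapTazKO against WT larvae. In YapKO larvae 3 rose and 2 fell, or 7 and 3 with the block, and the number was 1 without WT 2, WT 3 or YapKO 4, 2 without WT 1 or YapKO 1, 3 without YapKO 2 or YapTazKO 3 and 8 without YapTazKO 1. MYBPC1, the slow myosin-binding protein, was at 15.2 ± 6.64 CPM in YapTazKO larvae, 28.7 ± 4.12 CPM in YapKO larvae, and 48.1 ± 5.68 CPM in WT larvae (-1.67 ± 0.198, adjusted p = 1.5e-05). tcap, the Z-disc protein telethonin, was at 60.4 ± 9.41 CPM in YapTazKO larvae, 63.3 ± 8.08 CPM in YapKO larvae, and 17.3 ± 8.78 CPM in WT larvae (1.81 ± 0.223, adjusted p = 2.16e-05 and 1.88 ± 0.223 (adjusted p = 7.44e-05) against WT).

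Of 38 tested excitation-contraction coupling genes 15 rose and 4 fell in YapTazKO against WT larvae. In YapKO larvae 12 rose and 0 fell, or 13 and 0 with the block, and the number was 5 without YapKO 4, 6 without WT 3 or YapKO 1 and 7 without YapKO 2. CHRNG, the embryonic subunit of the muscle acetylcholine receptor, was at 34, 35.4, 33.6 and 36.6 CPM in YapTazKO larvae, 25.8, 17, 15.6 and 26.1 CPM in YapKO larvae, and 3.89, 3.42, 4.11 and 4.83 CPM in WT larvae. All mutant libraries were above all WT libraries (3.09 ± 0.176, adjusted p = 1.46e-08 and 2.37 ± 0.18 (adjusted p = 1.37e-06) against WT). RAPSN, which clusters that receptor, rose in YapTazKO larvae (1.07 ± 0.102, adjusted p = 1.86e-06). It averaged 36.3 CPM in YapTazKO, 28.4 CPM in YapKO and 17.3 CPM in WT larvae.

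Of 17 energy metabolism genes 5 rose and 7 fell in YapTazKO against WT larvae. In YapKO larvae 3 rose and 1 fell, or 5 and 3 with the block. ckma, a muscle creatine kinase, was at 8782 ± 1086 CPM in YapTazKO larvae, 6051 ± 562 CPM in YapKO larvae, and 3907 ± 303 CPM in WT larvae. It rose in YapTazKO (1.17 ± 0.0975, adjusted p = 4.89e-07) and YapKO larvae (0.63 ± 0.0966, adjusted p = 0.000729) against WT. CKMT2, its mitochondrial relative, averaged 81.2 ± 8.91 CPM in YapTazKO larvae, 81.2 ± 16.3 CPM in YapKO larvae, and 164 ± 18.7 CPM in WT larvae. CKMT2 fell in YapKO larvae (-1.02 ± 0.125, adjusted p = 0.000102). Every YapTazKO library was also below every WT library. The myosin assembly and chaperone list also holds muscle ubiquitin ligase genes of protein breakdown, FBXO32, TRIM55 and trim63b among them. Of its 16 tested genes 6 rose and 2 fell in YapTazKO larvae, and the number was 5 without YapTazKO 4. In YapKO larvae 4 rose and 0 fell, and the number was 1 without WT 1, WT 3 or YapKO 1 and 2 without WT 2, WT 4 or YapKO 2. FBXO32, a muscle ubiquitin ligase subunit, rose in YapTazKO larvae (1.52 ± 0.184, adjusted p = 1.86e-05), as did TRIM55 (1.06 ± 0.135, adjusted p = 3.04e-05). Of 30 muscle transcription factors 3 rose and 1 fell in YapTazKO larvae, and the number was 2 without WT 2, WT 3 or YapTazKO 4. In YapKO larvae 2 rose and 0 fell. PRDM1, a factor of slow fibre specification in zebrafish, rose in YapTazKO (1.09 ± 0.12, adjusted p = 6.91e-06) and YapKO larvae (0.61 ± 0.122, adjusted p = 0.00589) against WT.

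Between the mutants, the lists held fewer calls. Of the smooth muscle genes 0 rose and 5 fell in YapTazKO against YapKO larvae, of the light chains 0 and 4, of the scaffold genes 0 and 5, of the heart genes 0 and 3, and of the actins 0 and 1, which was acta2. Genes in several lists, acta2, MYL7 and MYLK among them, are counted in each. Of the energy metabolism genes 3 rose and 1 fell, of the coupling genes 1 and 1, of the assembly and chaperone list 2 and 0, and of the transcription factors 1 and 0. The 2 of the assembly and chaperone list were the ubiquitin ligase genes FBXO32 and trim63b. The number of smooth muscle genes was 3 without YapKO 2, YapTazKO 1 or YapTazKO 4, that of light chains 1 without YapKO 2, YapTazKO 1 or YapTazKO 4 and 2 without WT 1 or YapKO 3, that of scaffold genes 2 without YapTazKO 2 and 3 without YapKO 1, YapKO 2 or YapTazKO 1 and that of heart genes 1 without YapKO 2, YapTazKO 1, YapTazKO 3 or YapTazKO 4. The number of coupling genes was 1 without WT 3, WT 4, YapKO 1, YapKO 2, YapKO 4 or YapTazKO 4, that of assembly and chaperone genes 1 without YapTazKO 2 and 5 without YapKO 4 and that of transcription factors 0 without YapKO 2, YapKO 3, YapKO 4, YapTazKO 2 or YapTazKO 4 and 2 without WT 1. With DESeq2, 4 energy metabolism genes rose and 3 fell, 3 coupling genes rose and 1 fell, and 1 scaffold gene rose and 7 fell, and with the 8 libraries of both mutants alone 1 coupling gene rose and 0 fell. CNN1 (ENSDARG00000102398), the smooth muscle calponin, averaged 2.08 ± 0.615 CPM in YapTazKO larvae, 5.82 ± 1.29 CPM in YapKO larvae, and 10.3 ± 2.39 CPM in WT larvae (-1.47 ± 0.254, adjusted p = 0.00388 between the mutants).

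**Figure D5:**
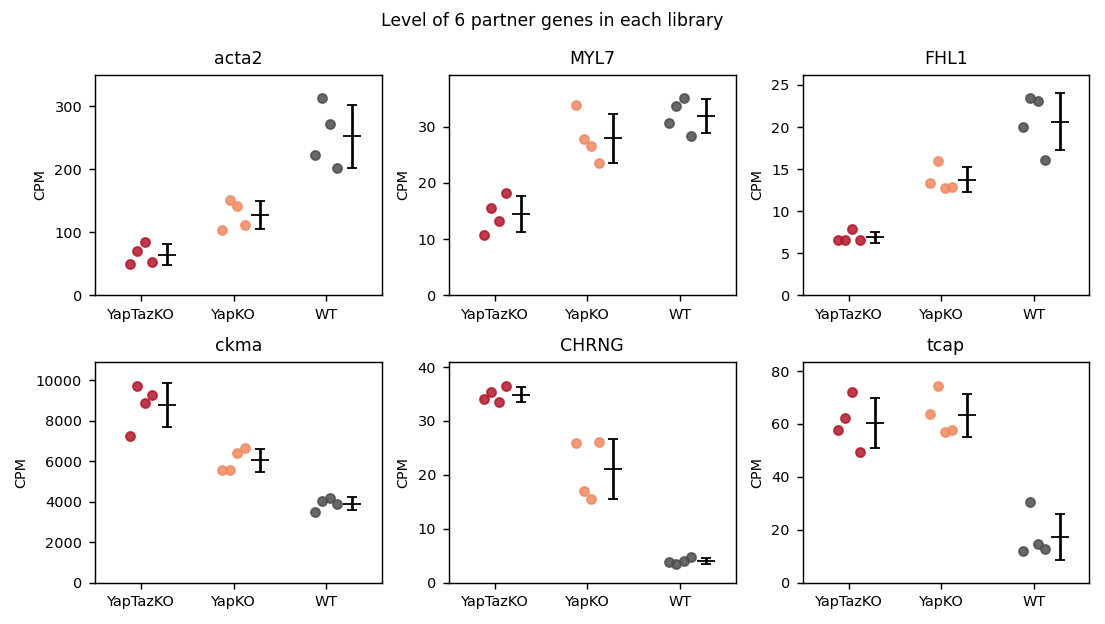
CPM of 6 partner genes in each library, for YapTazKO, YapKO and WT from left to right, with mean ± SD (n = 4) and axes from 0. acta2, MYL7 and FHL1 are lowest in YapTazKO, and ckma and CHRNG are highest there.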

How the data were processed

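The deposited values are raw counts of reads per Ensembl gene, whole numbers from 12 libraries, made by the authors with STAR 2.3.0e and HTSeq 0.6.0 per the submitters' processing notes. Per the labels' protocols, Trizol and columns were used for extraction and an Illumina HiSeq for sequencing. The genome build, annotation, strand setting and treatment of multiply mapped reads are not given in the sources used. Reads of near-identical copies, overlapping genes and antisense partners may therefore be split wrongly. Symbols came from a list of gene names that covers 22531 of 25473 identifiers, and classes were assigned by symbol. Of the 53 identifiers 18 carry a symbol shared with another.

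Genes were filtered with filterByExpr (minimum count 10, minimum total 15). The remaining 19493 were scaled by TMM and fitted with edgeR 4.0.16 (R 4.3.3, limma 3.58.1), 1 coefficient per genotype, two-sided quasi-likelihood tests, Benjamini-Hochberg adjustment, called under 0.05. The code was run on simulated counts with known changes in YapTazKO alone, as a check of the code and not of these results. The genes, classes and lists were chosen with earlier results of these data known. Per-library values are given for every called gene, for the gene with the highest mean CPM in each class (TNNI3K, a kinase gene, left out) and for fixed genes. Of partner lists the rule allowed up to 2 called genes per comparison, of which the text gives some, in part as means. Since nothing says that the libraries came from separate clutches, p-values reflect only how these libraries spread, which may be technical. Floors of 3 counts cover counting error only.

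Titles number the libraries 1 to 4. Deviations from group means correlated between same-numbered YapKO and WT libraries at 0.18, 0.306, 0.282 and 0.388, all over the 0.1 set for pairing, so the fit with the replicate number as a block is printed beside YapKO counts and calls that it changes. The highest values with WT libraries of another number were 0.111, 0.0506, 0.134 and 0.0465, so some of these passed 0.1 too. YapTazKO and WT gave 0.166, 0.103, 0.0717 and -0.0048 for the same number, and at most 0.158, 0.143, 0.0337 and 0.0422 for another. No value between the mutants reached 0.1, and neither comparison was treated as paired. The block was nevertheless fitted to all 12 libraries at once. The YapTazKO libraries therefore entered it by number too, also for the YapKO against WT values. Alternatives were RLE and upper-quartile scaling, no filter, the 8 libraries of 2 genotypes, the block, DESeq2 1.42.0, limma-voom and each library left out.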

Additional observations from a re-analysis of the deposited data

Results flagged for a closer look

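In 10 of 120 groups of 4 libraries examined (single genes and class sums), 1 library lay far from the other 3. Chance flags about 1 in 20 groups. Among the fast genes summed, YapTazKO 1 had 24478 CPM against 32151 to 33204 CPM in the other YapTazKO libraries, and over all genes of the rule 28455 CPM against 36837 to 37879 CPM. Among single genes in YapTazKO larvae, myh7bb was at 77.6 CPM in YapTazKO 3 against 43.0 to 43.8 CPM, and TNNT1 at 7.29 CPM in YapTazKO 4 against 9.76 to 10.2 CPM. In YapKO larvae, TNNT3 (ENSDARG00000068457) was at 4087 CPM in YapKO 3 against 3432 to 3515 CPM, and MYH11 (ENSDARG00000009782) at 80.9 CPM in YapKO 2 against 67.5 to 69.1 CPM. In WT larvae, smyhc1 was at 665 CPM in WT 1 against 736 to 748 CPM, the slow sum at 816 CPM in WT 1 against 908 to 926 CPM, smyhc2 at 70.4 CPM in WT 3 against 50.5 to 53.8 CPM, and MYH11 (ENSDARG00000100972) at 2.02 CPM in WT 4 against 0.658 to 0.873 CPM.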

How the results depend on the processing

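Of 89 called results for the named genes and the named partner genes together, 63 kept their call under all 19 other settings. The partner genes were taken by smallest adjusted p of each list, so this share is not that of the genes of the rule. Of the latter, only tnnc2.1 and MYH11 (ENSDARG00000009782) kept every call between the mutants. In YapKO against WT larvae only tnnt2c, tnnc2.1 and smyhc1 did. The number of genes of the rule called in YapKO against WT larvae was 8, with 3 to 13 when 1 library was left out, 3 without YapKO 1 and 13 without YapKO 3. Over all genes tested, 942 were called without YapKO 1 and 3041 without YapKO 3, against 1780. In YapTazKO against WT larvae the number of the rule was 24, with 20 to 24, and in YapTazKO against YapKO larvae 9, with 4 to 9. With the replicate number as a block the numbers were 11, 27 and 12 in that order, and with DESeq2 11, 23 and 10. Over all genes tested the block gave 2758, 6123 and 1443, against 1780, 5391 and 814. Other scalings, filters and tests moved none of these 3 numbers by over 1.5 times.

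Among the 33 named genes, the signs that reversed belonged to uncalled log2 fold changes, of which the lowest and highest values with 1 library left out follow. In YapTazKO against YapKO larvae, tpm3 gave -0.0198 to 0.0363, and -0.00708 with upper-quartile scaling, myhz2 gave -0.16 to 0.0850 and tpm1 gave -0.14 to 0.0109. In YapKO against WT larvae, TNNT3 (ENSDARG00000068457) gave -0.0502 to 0.0472, and -0.00890 with no filter, MYH7 gave -0.0872 to 0.28, TNNI2 (ENSDARG00000029995) gave -0.0488 to 0.12, TNNI1 (ENSDARG00000052708) gave -0.11 to 0.0402, myh7bb gave -0.0337 to 0.12, TNNT2 (ENSDARG00000020610) gave -0.0797 to 0.0710 and MYH11 (ENSDARG00000100972) gave -0.0620 to 0.66. In YapTazKO against WT larvae, myh6 (ENSDARG00000090637) gave -0.0300 to 0.16.

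Alternatives for single genes were run for the 33 named genes and the named partner genes. Among these 33, the block made 3 further calls beside those given in the results: TNNI2 (ENSDARG00000045592) in YapTazKO against WT larvae, and tnnc1a and TNNI2 (ENSDARG00000029995) in YapTazKO against YapKO larvae. Between the mutants the block also gave 4 fast genes, 10 scaffold, 8 energy metabolism and 4 coupling genes, 4 genes of the assembly and chaperone list and 2 transcription factors. These comparisons were not treated as paired. Depth limits the low genes: tnni4b.1, TNNI3K and TNNI1 (ENSDARG00000000474) were too low to test. The cause of the changes with settings was not tested.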
